A study of Mus musculus with 15 samples.

Results

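Expression was examined for 9 genes of the complement system, chosen by name: the serum proteases *C1ra* and *C1s1*, the central components *C3* and *C4b*, the alternative pathway proteases *Cfb* and *Cfd*, and the regulators *Serping1*, *Cd55* and *Cd59a*. Of these, 7 were analysed among the 20910 genes of cultured mouse retinal pigment epithelium (mRPE) cells, and all 9 among the 25038 genes of mouse RPE/choroid. *Cfb* and *Cfd* were not analysed here in mRPE cells.

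RNA was sequenced from mRPE cells with and without the *Prom1* gene, which encodes the membrane protein prominin-1, to learn how its loss changes RPE gene expression, and from RPE/choroid of mice. The mRPE cells were an immortalized line made from pooled cells of C57BL/6J mice. Cas9 was later put into the line, and *Prom1* was deleted with CRISPR/Cas9. There were 4 WT libraries, 3 libraries of the *Prom1*-KO clone KO22 and 2 of the *Prom1*-KO clone KO26, so that each KO group stood for 1 clone. Both KO26 libraries were left out by the study as outliers of its sample quality control, and they are kept here as a group of their own. The RPE/choroid libraries were 3 WT and 3 labelled *Prom1*-KO, from *Prom1* fl/fl mice crossed with RPE65-Cre mice and gavaged with tamoxifen, a cross made to delete *Prom1* in the RPE and not in the photoreceptors. The labels did not say whether replicate libraries came from separate cultures or animals, so that p-values measure the spread between these libraries, which may be technical. In bulk RNA, fewer cells of a type and less RNA per cell cannot be told apart.

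The mRPE libraries fell into 2 sequencing batches, given by the number that opens each library name. Batch 8995 held 1 WT, 1 KO22 and 1 KO26 library (replicate 1 of each), and batch 9262 held 3 WT, 2 KO22 and 1 KO26 library. Total counts were 8076188 to 27537863 per mRPE library and 48154444 to 61766179 per RPE/choroid library. In RPE/choroid, 55.3% to 63.2% of the counts of 5 libraries were mitochondrial ribosomal RNA, against 80.4% in KO replicate 3, which left that library the fewest counts outside the mitochondrial genome. Of 13 RPE marker genes, 3 (*Best1*, *Pmel* and *Mitf*) were analysed in mRPE cells, at a summed 8.18 to 12.8 CPM (counts scaled by library size) in WT, while 7 of 8 fibroblast marker genes summed to 12800 to 17500 CPM there. The visual cycle genes *Rpe65*, *Rlbp1* and *Lrat*, which define mature RPE, were not analysed here in mRPE cells. *Prom1* was likewise not analysed here in mRPE cells, and in RPE/choroid it was at 48.7, 49.6 and 53.3 CPM in WT and at 49.9, 48.1 and 35.5 CPM in the libraries labelled *Prom1*-KO, so that it did not check their labels.

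Complement is a cascade of proteases and opsonins. The C1r and C1s proteases of the C1 complex cleave C4 and C2, which opens the classical pathway, and factor D cleaves factor B to build the convertase of the alternative pathway, and both routes meet in the cleavage of C3. Host cells hold the cascade in check with soluble inhibitors such as C1 inhibitor and with membrane proteins such as CD55, which dissociates C3 convertases, and CD59, which blocks the membrane attack complex. The RPE makes several of these proteins, and complement at the RPE and choroid is a long-studied subject in age-related macular degeneration.

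Several of the genes are neighbours in the genome (GRCm39, GENCODE vM39). *C1ra* (ENSMUSG00000055172, plus strand) lies at chr6:124489364-124500402 and *C1s1* (ENSMUSG00000038521, minus strand) at chr6:124507297-124559389. *C4b* (ENSMUSG00000073418, chr17:34947354-34962912) and *Cfb* (ENSMUSG00000090231, chr17:35074852-35081559) lie in the major histocompatibility region, and *C3* (ENSMUSG00000024164) at chr17:57510964-57535155, all 3 on the minus strand. *Serping1* (ENSMUSG00000023224, minus strand) lies at chr2:84595705-84620873, *Cd59a* (ENSMUSG00000032679, plus strand) at chr2:103926132-103947029, *Cd55* (ENSMUSG00000026399, minus strand) at chr1:130366469-130390926 and *Cfd* (ENSMUSG00000061780, plus strand) at chr10:79726668-79728496. Mouse has close copies of 5 of the genes, and reads from shared stretches can be lost or split. The share of 100-base windows of the transcript found in the copy was 34.5% for *C1ra* with *C1rb*, 16.3% for *C4b* with *C4a*, 14.1% for *Cd59a* with *Cd59b*, 7.99% for *C1s1* with *C1s2* and 5.26% for *Cd55* with *Cd55b*. *C1s1* also overlaps *C1rb* on the opposite strand, and *Cfb* overlaps *Nelfe* on the opposite strand and *Gm20547* on its own strand, and the strand setting of the counting was not given in the sources used here.

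Promoters are shown for *C1ra*, *C1s1*, *C3* and *Serping1*, the 4 genes whose difference between KO22 and WT was not the same in the single libraries of batch 8995 as in those of batch 9262. Each runs from 250 bases before to 50 bases after the annotated start of the canonical transcript, 5′ to 3′, and was read from the GRCm39 genome. The canonical transcripts of *C1s1* and *Serping1* start inside the annotated span of the gene. Capitals mark the letters TTGCNNAA on either strand, the core bound by C/EBP factors, and in *C3* also the letters TATAAA.

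*C1ra*, chr6:124489114-124489413, plus strand: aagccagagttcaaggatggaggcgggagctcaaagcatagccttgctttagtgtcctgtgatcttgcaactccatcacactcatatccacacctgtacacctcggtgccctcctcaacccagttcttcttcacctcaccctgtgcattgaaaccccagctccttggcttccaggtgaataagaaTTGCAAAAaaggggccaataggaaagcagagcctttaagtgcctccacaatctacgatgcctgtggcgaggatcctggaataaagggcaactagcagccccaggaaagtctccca

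*C1s1*, chr6:124519269-124519568, minus strand: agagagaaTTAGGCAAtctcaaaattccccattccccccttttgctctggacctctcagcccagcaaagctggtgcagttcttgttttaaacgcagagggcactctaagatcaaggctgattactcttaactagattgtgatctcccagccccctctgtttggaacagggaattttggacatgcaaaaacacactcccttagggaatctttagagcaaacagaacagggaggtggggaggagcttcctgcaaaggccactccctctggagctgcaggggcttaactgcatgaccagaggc

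*C3*, chr17:57535106-57535405, minus strand: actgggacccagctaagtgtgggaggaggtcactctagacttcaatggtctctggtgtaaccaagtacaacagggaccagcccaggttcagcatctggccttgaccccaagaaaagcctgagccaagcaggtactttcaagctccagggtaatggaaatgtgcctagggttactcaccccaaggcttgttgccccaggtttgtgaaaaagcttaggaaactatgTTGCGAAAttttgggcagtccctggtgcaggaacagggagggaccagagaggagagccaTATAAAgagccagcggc

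*Serping1*, chr2:84605739-84606038, minus strand: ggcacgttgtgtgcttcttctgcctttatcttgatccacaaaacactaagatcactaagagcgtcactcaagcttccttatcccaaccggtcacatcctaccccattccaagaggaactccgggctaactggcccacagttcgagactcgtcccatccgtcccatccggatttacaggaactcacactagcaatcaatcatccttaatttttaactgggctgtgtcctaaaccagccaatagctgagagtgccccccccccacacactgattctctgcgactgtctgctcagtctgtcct

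The C/EBP letters stood at -65 to -58 in *C1ra*, -242 to -235 in *C1s1* and -26 to -19 in *C3*, counted with 0 as the annotated start. They were in none of the other 6 members' promoters and in 9.6% of 16226 promoters of the same length. In *C3*, TATAAA stood 33 to 38 bases after the annotated start, and 9.31% of promoters held it. The annotated start thus lies upstream of these letters, and whether it is the main start of *C3* was not tested, so that positions in *C3* hold for the annotation only. Among the other letters searched, TTCNNNGAA (the GAS element of interferon signalling, 7.69% of promoters) was found in *Cfb*, an interferon-stimulated response element (3.62%) in *Cd59a*, and an NF-kappaB site (1.83%) in no member. Both strands were searched, and no 2 matches overlapped in a member. A match is a description of the letters only.

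In WT mRPE cells *C3* was among the most abundant genes. Levels are given per kilobase (kb) of gene length, the joined exons of all transcripts of a gene. *C3* had a mean of 475 CPM per kb, above 99.8% of genes. It was followed by *C1s1* at 222 and *C1ra* at 67 CPM per kb, above 99.7% and 98.8%. *Serping1* (9.93 CPM per kb), *C4b* (4.01) and *Cd55* (2.03) were lower, and *Cd59a* (0.287) stood above 13.3% of genes. In WT RPE/choroid the order differed. *Serping1* led at 27 CPM per kb, above 99.2% of genes, *C1s1* was at 5.9, *C4b* at 3.51, *C3* at 3.28, and *C1ra*, *Cd59a* and *Cd55* at 2.03, 2.02 and 1.91 CPM per kb. *Cfd* and *Cfb* were at 0.318 and 0.0329 CPM per kb. The gene length was 6.284 kb for *Cd59a* and 5.911 kb for *Cd55*, while their canonical transcripts have 1705 and 3273 bases. Levels per kb of these genes, and their places in the order, therefore depend on the length used. The tables were made separately, so levels were not compared between them by a test.

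The classical pathway proteases were lower in clone KO22. A gene was called where edgeR's quasi-likelihood test, which included the batch, gave an adjusted p (Benjamini-Hochberg) under 0.05 and the log2 fold change exceeded 1.2 in either direction. By this rule 4 of the 7 members were lower in KO22 than in WT (*C1ra*, *C1s1*, *Cd55* and *Cd59a*) and 0 were higher, where 13.8% of 20455 tested genes were called lower and 11.4% higher. The median log2 fold change of the 7 members was -2.36, the value of *Cd59a*, against -0.03 over all tested genes. *Cd55* and *Cd59a* passed the count filter through the WT libraries, and the members were chosen with earlier results of these data known. These counts and the median therefore describe the members and are no test of them as a set.

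*C1ra* was at 77.7 CPM in the WT library of batch 8995 and at 235, 261 and 280 CPM in those of batch 9262. In KO22 it was at 18.2 CPM in batch 8995 and at 24.1 and 19.6 CPM in batch 9262. Every KO22 library lay below every WT library, and the fitted difference was -3.14 on the log2 scale (SE 0.28, adjusted p = 2.09e-05), 8.83-fold lower. Lack of overlap was common, as 25.3% of all tested genes lay lower and 24.8% higher in KO22 than in WT without overlap. *C1s1*, whose product C1s is the protease that C1r activates, was at 348 CPM in WT of batch 8995 and at 885, 1050 and 804 CPM in batch 9262. Its KO22 values were 101 CPM in batch 8995 and 69.7 and 52.5 CPM in batch 9262. These groups did not overlap either, with a log2 fold change of -3.29 (SE 0.40, adjusted p = 0.000136), 9.77-fold lower. Clone KO26 had *C1ra* at 71.6 and 238 CPM and *C1s1* at 137 and 874 CPM in batches 8995 and 9262. Both batch 9262 values lay within the WT range of that batch, *C1ra* was close to the WT library of batch 8995 and *C1s1* below it. The KO26 differences from WT, -0.24 (SE 0.29, adjusted p = 0.682) for *C1ra* and -0.58 (SE 0.54, adjusted p = 0.575) for *C1s1*, did not pass the test.

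**Figure D1:**
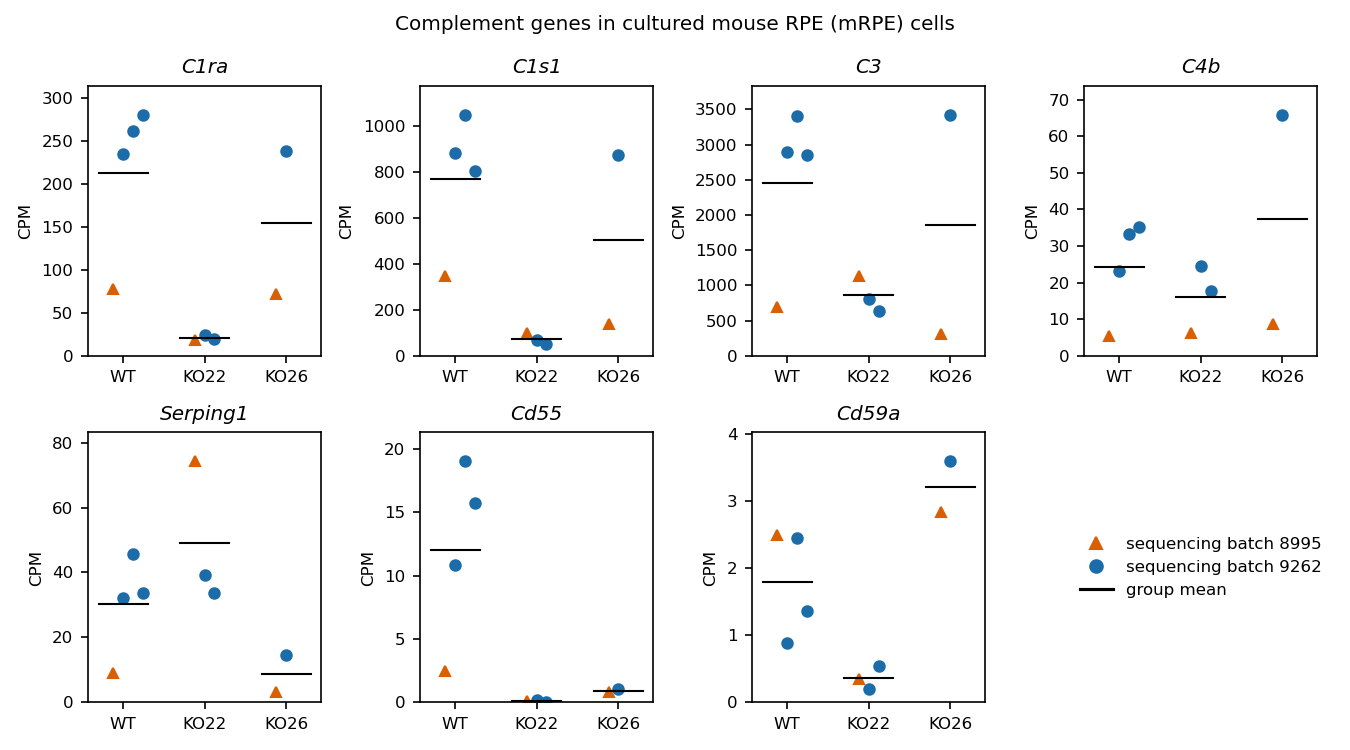
Level (CPM on the TMM scale, linear axis from 0) of each complement gene in every mRPE library, by group, with triangles for sequencing batch 8995, circles for batch 9262 and bars for group means. *C1ra* and *C1s1* in KO22 lie below every WT library, *Cd55* is at or near 0 in KO22, and in WT and KO26 the triangles of *C3*, *C4b*, *C1ra*, *C1s1* and *Serping1* lie below the circles.

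*C3*, the protein on which all complement pathways converge, gave different values in the 2 batches. In batch 8995 it was at 688 CPM in WT, 1140 CPM in KO22 and 306 CPM in KO26. In batch 9262 it was at 2890, 3410 and 2850 CPM in WT, 810 and 634 CPM in KO22 and 3420 CPM in KO26. KO22 therefore lay above WT in batch 8995 and below it in batch 9262. Over both batches the log2 fold change of KO22 against WT was -1.29 (SE 0.50, adjusted p = 0.0532), which did not pass the test, and with the batch 9262 libraries alone it was -2.09 (adjusted p = 3.94e-11), a fit added after the data were seen. Without WT replicate 1 or KO22 replicate 1, the libraries of batch 8995, it was -2.09 or -2.07 and passed the test. These 2 fits also rest on batch 9262, because the batch term takes up the 1 library left in batch 8995. In KO26 the log2 fold change of *C3* from WT was -0.38 (SE 0.65, adjusted p = 0.783). *C4b*, a gene of complement component C4, a fragment of which forms the classical C3 convertase with a fragment of C2, was at 5.52 CPM in WT of batch 8995 and at 23.2, 33.4 and 35.1 CPM in WT of batch 9262. KO22 had 6.31 CPM in batch 8995 and 24.5 and 17.8 CPM in batch 9262, and KO26 had 8.82 and 65.8 CPM. KO22 and WT overlapped (log2 fold change -0.34, SE 0.22, adjusted p = 0.206), and KO26, with the highest value of each batch, was 0.89 above WT on the log2 scale without passing the test (SE 0.26, adjusted p = 0.0876).

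The 2 membrane regulators among the members, *Cd55* and *Cd59a*, were lower in KO22. *Cd55*, the decay-accelerating factor, was at 2.5 CPM in WT of batch 8995 and at 10.8, 19 and 15.7 CPM in WT of batch 9262. The 3 KO22 libraries had 1, 4 and 0 counts, or 0.0865, 0.193 and 0 CPM, and the 2 KO26 libraries had 0.835 and 1.04 CPM. All 5 KO libraries lay below all 4 WT libraries. Of all tested genes, 25.3% in KO22 and 12.8% in KO26 lay lower than WT without overlap. Summed over libraries, *Cd55* had 634 counts in WT, 5 in KO22 and 27 in KO26, a per-depth ratio of 89.7-fold lower in KO22 (95% counting interval 38.2 to 277) and 11.1-fold lower in KO26 (7.56 to 17). These ratios took no account of the batch, of which the groups held unequal shares. Within batches 8995 and 9262, the log2 ratio to WT (CPM with 0.5 added) was -1.17 and -3.35 in KO26. The fitted differences from WT were -6.64 (SE 0.52, adjusted p = 1.08e-05) for KO22 and -2.80 (SE 0.57, adjusted p = 0.0273) for KO26 on the log2 scale, the latter 6.95-fold lower. *Cd55* was the only member called in KO26, 1 of 7 lower and 0 higher, where 0.719% of 20737 tested genes were called lower and 1.21% higher. The KO26 call did not pass without WT replicate 2, 3 or 4 (adjusted p = 0.0692, 0.0775 and 0.083), without KO26 replicate 2 (log2 fold change -1.64, adjusted p = 0.138) or without the batch term (-3.69, adjusted p = 0.0532).

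*Cd59a*, the mouse CD59 of most tissues, was near the lower limit of detection. It had 63 counts (2.5 CPM) in WT of batch 8995 and 13, 25 and 19 counts (0.891, 2.45 and 1.36 CPM) in batch 9262. KO22 had 4, 4 and 7 counts (0.346, 0.193 and 0.543 CPM), all below WT. KO26 had 61 and 31 counts (2.83 and 3.59 CPM), both above WT. Without overlap with WT, 25.3% of tested genes lay lower in KO22 and 11.9% higher in KO26. The KO22 difference from WT was -2.36 (SE 0.51, adjusted p = 0.00372) on the log2 scale, with a ratio of summed counts, without regard to batch, of 5.66-fold lower (95% counting interval 3.3 to 10.4), and the KO26 difference was 0.77 (SE 0.44, adjusted p = 0.359). *Cd55* and *Cd59a* reached the limit of 5 counts in at least 3 of the KO22 and WT libraries through the WT libraries, so that neither could have passed this filter at the KO22 level. *Serping1*, the gene of C1 inhibitor, which inactivates C1r and C1s, was at 9.1 CPM in WT of batch 8995 and at 32.3, 45.7 and 33.6 CPM in batch 9262. KO22 had its highest level in batch 8995, 74.2 CPM, and 39.1 and 33.7 CPM in batch 9262, while KO26 had 3.11 and 14.5 CPM. KO26 was the lowest group in each batch, and KO22 was above WT in batch 8995 and within the WT range in batch 9262. Neither difference from WT passed the test, at 0.81 (SE 0.51, adjusted p = 0.208) for KO22 and -1.72 (SE 0.66, adjusted p = 0.182) for KO26. KO26 was -1.34 from WT in batch 9262 alone (adjusted p = 5.96e-05), with its 1 library there assumed to vary like the others, and -1.42 from WT without KO22 replicate 1 (adjusted p = 6.87e-05).

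By the rule for calls, the 2 clones differed from each other in 6 of the 7 members. In KO22 against KO26, 5 members were called lower and 1 higher, where 10.7% of 20737 tested genes were called lower and 7.56% higher. The log2 difference was -2.85 for *C1ra* (SE 0.31, adjusted p = 8.84e-05), -2.47 for *C1s1* (SE 0.58, adjusted p = 0.00785), -1.21 for *C4b* (SE 0.28, adjusted p = 0.00675), -3.77 for *Cd55* (SE 0.88, adjusted p = 0.00777) and -3.13 for *Cd59a* (SE 0.56, adjusted p = 0.00178). *Serping1* was 2.75 higher (SE 0.71, adjusted p = 0.0123). *C3* gave -0.54 (SE 0.73, adjusted p = 0.607), and its values in the 2 clones overlapped. Those of *C4b* overlapped too, and its difference lay close to the limit of 1.2. DESeq2's test put *C4b* at -1.18 and did not call it. In batch 9262 alone, where KO26 had 1 library, *C3* differed by -2.27 in KO22 from KO26 (adjusted p = 7.12e-10). The calls of *C1s1*, *C4b*, *Serping1* and *Cd55* depended on KO26 libraries. Without KO26 replicate 2, *C1s1* was at -1.03 (adjusted p = 0.187) and *C4b* at -0.76 (adjusted p = 0.152), and without KO26 replicate 1, *Serping1* was at 1.88 (adjusted p = 0.128) and *Cd55* at -2.80 (adjusted p = 0.0517).

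**Figure D2:**
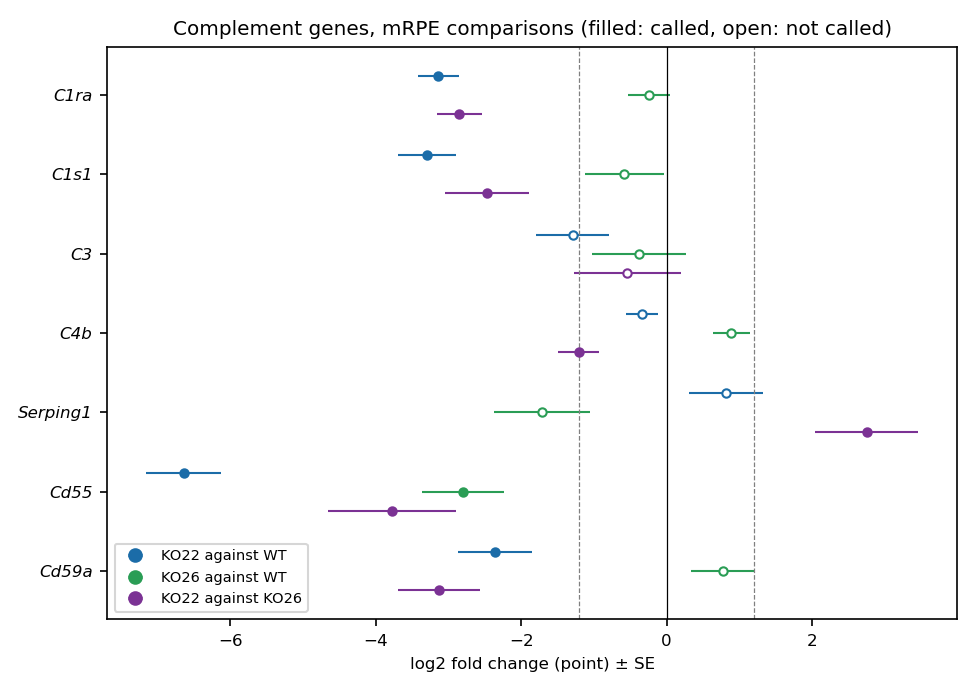
Log2 fold change (point) and its SE (bar) of each complement gene in the 3 mRPE comparisons, with filled points for called genes, open points for genes not called and dashed lines at the log2 limits of -1.2 and 1.2. *Cd55* is the only gene filled in all 3 comparisons, and *C3* is open in all 3.

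The levels of these genes also differed between batches within WT cells. Between the WT libraries, the mean of batch 9262 was 4.44 times that of batch 8995 for *C3*, 5.53 times for *C4b*, 6.07 times for *Cd55*, 4.09 times for *Serping1*, 3.33 times for *C1ra* and 2.62 times for *C1s1*, while *Cd59a* was at 0.627 times. In KO26 the ratio was 11.2 for *C3*, 7.46 for *C4b*, 6.36 for *C1s1*, 4.65 for *Serping1* and 3.33 for *C1ra*, and 1.25 for *Cd55* and 1.27 for *Cd59a*. In KO22 *C4b* was higher in batch 9262, at 3.35 times the batch 8995 level. The other KO22 ratios were 0.631 for *C3*, 0.606 for *C1s1*, 0.49 for *Serping1*, 1.2 for *C1ra*, 1.11 for *Cd55* and 1.06 for *Cd59a*. In the fit over 9 libraries, *C4b* (log2 difference 2.35, SE 0.25, adjusted p = 0.00177) and *C1ra* (1.22, SE 0.26, adjusted p = 0.0209) were called higher in batch 9262, 2 of 7 members and 0 lower, where 1.91% of tested genes were called higher and 0.661% lower. The *C1ra* call did not pass without any 1 of the WT or KO26 libraries (adjusted p = 0.055 to 0.135). Without KO22 replicate 1 the same fit called 6 of the 7 higher, and 1103 genes in all, against 397 with all libraries.

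The difference between KO22 and WT was then compared between batches, in a test added after the data were seen. It was more negative in batch 9262 than in batch 8995 for 4 of 7 members and less negative for 0, where 5.08% of tested genes were called lower and 5.93% higher. The log2 change of the difference was -2.81 for *C3* (SE 0.25, adjusted p = 6.55e-08), -3.04 for *Serping1* (SE 0.24, adjusted p = 1.56e-08), -2.11 for *C1s1* (SE 0.24, adjusted p = 1.77e-06) and -1.47 for *C1ra* (SE 0.22, adjusted p = 3.96e-05). Within batches, the log2 ratio of KO22 to WT (CPM with 0.5 added) went from 0.73 to -2.08 for *C3* and from 2.96 to -0.03 for *Serping1*, whereas *C1ra* (-2.06 and -3.54), *C1s1* (-1.78 and -3.89), *Cd55* (-2.36 and -4.72) and *Cd59a* (-1.83 and -1.25) were negative in both. *C4b*, at 0.18 and -0.52, did not pass (adjusted p = 0.158). Batch 8995 held 1 library of each group, so its spread was taken from batch 9262, and what belongs to the batch and what to those single libraries cannot be told apart.

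**Figure D3:**
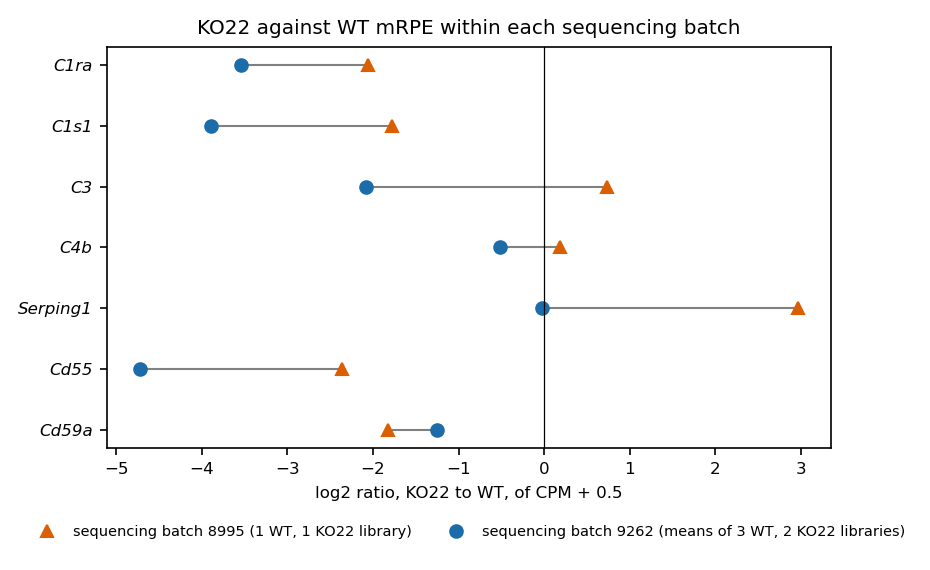
Log2 ratio of KO22 to WT (CPM plus 0.5) for each complement gene within sequencing batch 8995 (triangles, 1 WT and 1 KO22 library) and batch 9262 (circles, means of 3 WT and 2 KO22 libraries), with a grey line joining the 2 values of a gene. *C3* goes from 0.73 to -2.08 and *Serping1* from 2.96 to -0.03, while *C1ra*, *C1s1*, *Cd55* and *Cd59a* stay negative in both.

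Cytokine pathways that induce complement genes were followed in a list of 16 genes, of which 14 were tested in mRPE cells. In KO22 against WT, 2 were called higher and 2 lower, where 11.4% of all tested genes were called higher and 13.8% lower, close to the shares in the list. *Il6*, the cytokine interleukin-6, was 2.60 higher (SE 0.74, adjusted p = 0.0145) and *Cebpb*, a C/EBP transcription factor, 1.61 higher (SE 0.37, adjusted p = 0.00494), while *Il6st*, the signalling chain of the interleukin-6 receptor, was at -1.74 (SE 0.12, adjusted p = 4.77e-06) and *Ifngr1*, an interferon-gamma receptor chain, at -1.21 (SE 0.12, adjusted p = 4.13e-05). The same *Il6* and *Cebpb* were the 2 called higher in KO22 against KO26, with 0 lower. None of the 14 was called by edgeR in KO26 against WT, where 3 had an unadjusted p under 0.05 and DESeq2 called 0. The KO22 library of batch 8995, in which *C3* and *Serping1* were above WT, had *Il6* at 109 CPM, *Cebpb* at 20.8 CPM and *Cebpd* at 106 CPM. The WT library of that batch had 1.71, 2.9 and 30.2 CPM, and the KO22 libraries of batch 9262 had 18 and 17.7, 5.11 and 6.98, and 39.9 and 43 CPM. The KO22 difference of these 3 genes was lower in batch 9262 than in batch 8995, by -4.59 (adjusted p = 4.99e-10) for *Il6*, -1.84 (adjusted p = 0.00127) for *Cebpb* and -2.09 (adjusted p = 5.03e-08) for *Cebpd*. Of the 14 tested genes of the list, 11 gave a negative change of this kind and 3 a positive one. The median was -0.54, against 0.14 over all tested genes. The part of *Il6*, *Cebpb* and *Cebpd* in the levels of the complement genes was not tested.

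The rest of the complement system was followed in a list of 50 genes, of which 22 were tested in mRPE cells. In KO22 against WT, 2 were called higher and 7 lower, with a median log2 fold change of -0.41, where 11.4% of all tested genes were called higher and 13.8% lower. Among the recognition molecules, 1 of 2 was lower, the collectin *Colec11* (-4.47, SE 0.76, adjusted p = 9e-04). It had 0, 2 and 0 counts in KO22, so that it passed the count filter through the WT libraries. Among early proteases and components, 2 of 6 were lower, the C1r-like protease *C1rl* (-2.41, SE 0.20) and the lectin pathway protease *Masp1* (-1.34, SE 0.11), both with an adjusted p of 1.39e-05. Of 2 terminal components, *Hc*, the gene of C5, was 5.39 higher (SE 0.60, adjusted p = 7.61e-05). It was at 20.1, 7.23 and 9.39 CPM in KO22, against 0.0397 to 0.785 CPM in WT and 0.0928 and 0 CPM in KO26. In WT *Hc* had 1, 5, 8 and 2 counts, so that it passed the count filter only with the KO22 libraries.

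Most regulators and receptors of this wider list were not called, and those called were lower except *Susd4*. Of 4 fluid phase regulators, *C4bp*, the C4b-binding protein (-4.96, SE 0.35, adjusted p = 5.75e-06), and *Clu*, clusterin (-1.86, SE 0.19, adjusted p = 4.63e-05), were lower. *C4bp* had 0, 9 and 6 counts in KO22, so that it passed the count filter only with the WT libraries. *Clu* was at 152 to 215 CPM in WT, 45.4 to 68.2 CPM in KO22 and 116 and 251 CPM in KO26. Of 5 membrane regulators, *Cd46*, which helps factor I cleave C3b, was lower (-2.31, SE 0.15, adjusted p = 3.27e-06) and *Susd4* was 1.47 higher (SE 0.42, adjusted p = 0.0158), and the median log2 fold change of the 5 was 0.72. Of 3 receptors, *Cr2*, complement receptor 2, was lower (-1.78, SE 0.18, adjusted p = 4.73e-05).

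KO26 differed from KO22 in this list too. None of the 22 genes was called by edgeR in KO26 against WT, where 6 had an unadjusted p under 0.05, all lower, and DESeq2 called 0. In KO22 against KO26, *Hc* (7.55, SE 1), *Csmd1* (2.85, SE 0.64) and *Susd4* (2.37, SE 0.63) were called higher and *Colec11* (-4.55, SE 0.84), *C1rl* (-2.49, SE 0.23), *C4bp* (-4.10, SE 0.44), *Clu* (-1.74, SE 0.28) and *Cd46* (-1.40, SE 0.21) lower. The batch 9262 against 8995 fit called *Cr2* alone (1.69, SE 0.21, adjusted p = 0.00292), higher. Beside these values, the fibroblast markers summed to 5570 to 8670 CPM in KO22 and 19900 to 21800 CPM in KO26, against the WT range given above, with 4 of 7 called lower in KO22 against WT, where 13.8% of tested genes were. Most of this sum was *Col1a1*, *Col1a2* and *Col3a1*. In KO22 against WT, 6 of the 7 log2 fold changes were negative and 1 positive (*Dcn*, 0.61). In KO26 against WT, 4 were positive and 3 negative, among them *Pdgfra* at -0.78. The endothelial markers summed to 152 to 237 CPM in WT, 3.88 to 5.69 CPM in KO22 and 56.4 to 74.2 CPM in KO26. Nearly all of this sum was *Kdr* (-6.22 in KO22 against WT, adjusted p = 8.68e-06), while *Plvap* was called higher (1.82, adjusted p = 0.0192) and the median log2 fold change of the 5 endothelial markers tested was 0.50. The 3 RPE markers summed to 15.5 to 38.7 CPM in KO22 and 5.38 to 9.14 CPM in KO26. Their part in the complement differences was not tested.

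**Figure D4:**
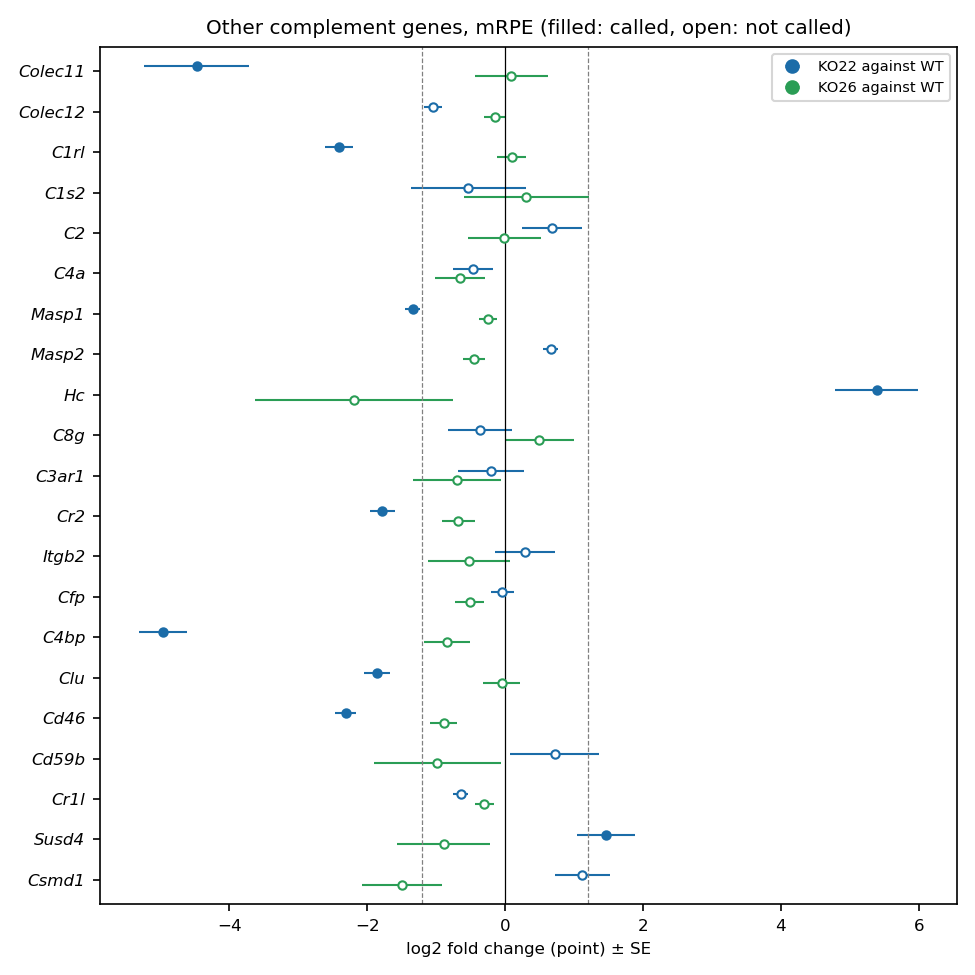
Log2 fold change (point) and its SE (bar) of other complement genes tested in mRPE cells, for KO22 against WT and KO26 against WT, ordered by role from recognition molecules to membrane regulators, with filled points for called genes and dashed lines at the log2 limits of -1.2 and 1.2. In KO22, 9 genes are filled, from *C4bp* at -4.96 to *Hc* at 5.39, and in KO26 none is.

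In RPE/choroid, 0 of the 9 members passed edgeR's test, and *C4b* was the 1 member whose groups did not overlap, where 6.71% of tested genes lay higher without overlap and 7.89% lower. It was at 24, 19 and 20.7 CPM in WT and at 70.2, 73.9 and 38.2 CPM in the libraries labelled *Prom1*-KO. The groups did not overlap, and KO replicate 3, the library with the largest mitochondrial share, was the lowest of the KO group. The log2 fold change was 1.52 (SE 0.26, adjusted p = 0.102), 2.86-fold higher. Without KO replicate 3 it was 1.75 and passed (adjusted p = 0.0143), and DESeq2's test over all 6 libraries called it (1.51, adjusted p = 1.11e-05), while leaving out any other library gave an adjusted p of 0.217 to 0.434. By edgeR, 2 members (*C4b* and *C3*) had an unadjusted p under 0.05, and DESeq2 called 1 of the 9. Over all 24926 tested genes edgeR called 0% higher and 0.189% lower, and 2068 had an unadjusted p under 0.05.

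*C3* was at 11.8, 20.2 and 19 CPM in WT and at 47.9, 27.5 and 20.2 CPM in the KO group, which overlapped at 20.2 CPM (log2 fold change 0.91, SE 0.34, adjusted p = 0.54). Of the alternative pathway proteases, *Cfd*, which fat cells also express strongly, was at 0.238, 0.389 and 0.292 CPM in WT and at 0.175, 0.669 and 2.75 CPM in KO. Its log2 fold change of 1.92 (SE 0.87, adjusted p = 0.639) rested on KO replicate 3, without which the value was 0.46 (adjusted p = 0.92). The adipocyte markers summed to 7.95 to 47 CPM in WT and 14.2 to 43.4 CPM in KO, most of it *Car3*. The other 5 adipocyte markers tested were highest in KO replicate 3, as *Cfd* was. There *Fabp4* was at 9.92 CPM against 1.63 to 3.51 CPM in the other libraries, and *Adipoq* at 1.49 against 0.102 to 0.343 CPM. Their part in the level of *Cfd* was not tested. *Cfb* was at 3 to 10 counts in every library and could not be compared with precision (0.16, SE 0.53, adjusted p = 0.966).

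The classical proteases and the regulators overlapped between the groups. *C1ra* was at 4.61, 7.76 and 7.08 CPM in WT and 6.83, 6.25 and 6.1 CPM in KO (-0.02, SE 0.21, adjusted p = 0.992), and *C1s1* at 16.1, 23.7 and 21.7 against 19, 15 and 18.8 CPM (-0.22, SE 0.18, adjusted p = 0.811). *Serping1*, the most abundant member here, was at 58.6, 95.1 and 92 CPM in WT and 92.1, 81.7 and 90.9 CPM in KO (0.11, SE 0.20, adjusted p = 0.935). *Cd55* was at 8.15, 15.2 and 10.5 CPM in WT and at 6.31, 8.77 and 16.6 CPM in KO (-0.10, SE 0.38, adjusted p = 0.969). The 95% interval of this difference ran from -0.84 to 0.64. *Cd59a* was at 14, 11.1 and 13 CPM in WT and 15.2, 12.6 and 15.5 CPM in KO (0.18, SE 0.15, adjusted p = 0.808).

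**Figure D5:**
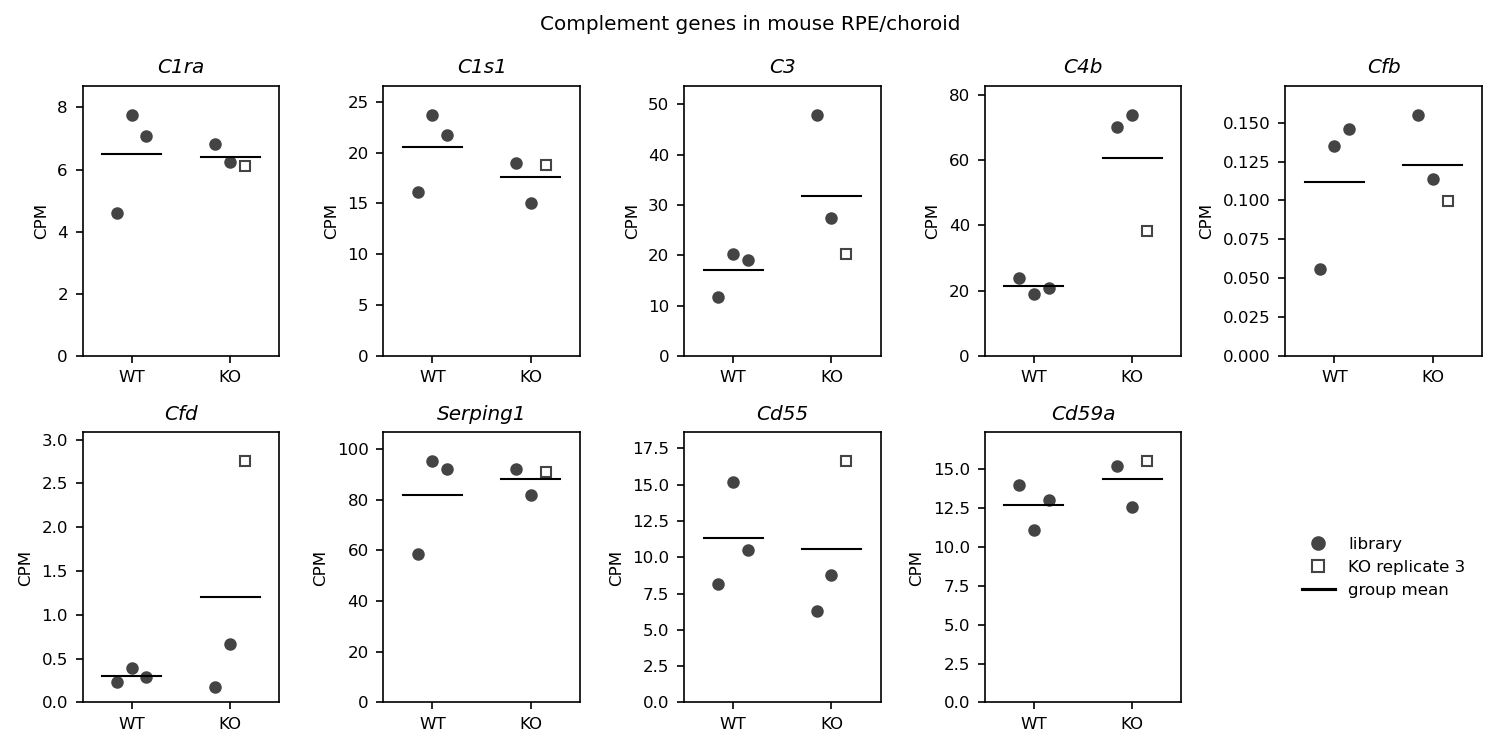
Level (CPM on the TMM scale, linear axis from 0) of each complement gene in the 3 WT and 3 KO RPE/choroid libraries, with bars for group means and an open square for KO replicate 3. *C4b* is the gene whose KO libraries all lie above the WT libraries, and the highest *Cfd* value, 2.75 CPM, belongs to KO replicate 3.

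None of the 36 other complement genes tested in RPE/choroid was called by edgeR or DESeq2, and 6 had an unadjusted p under 0.05 by edgeR, 5 of them higher. By edgeR, 0 of 15 tested genes of the cytokine list were called, with 2 at an unadjusted p under 0.05, and DESeq2 called 0. *C1qb* and *C1qc*, chains of the C1q recognition molecule that macrophages make, gave 0.51 (SE 0.19, adjusted p = 0.523) and 0.46 (SE 0.19, adjusted p = 0.584). The macrophage markers summed to 261 to 334 CPM in WT and 213 to 295 CPM in KO, most of it *Lyz2*. *Cx3cr1* (1.07, adjusted p = 0.196) and *Ptprc* (0.54, adjusted p = 0.503) lay higher in every KO library than in every WT library, and *Csf1r* (-0.54, adjusted p = 0.211) and *Cd68* (-0.25, adjusted p = 0.682) lay lower. Some of the RPE markers differed between the groups. All 13 were present, they summed to 2550 to 3480 CPM in WT and 1210 to 1370 CPM in KO, and 3 of them (*Rpe65*, *Rgr* and *Lrat*) were called lower. Most of the fall in the sum lay in these 3 and *Ttr*. Of the 13 log2 fold changes 12 were negative, but *Dct* was at a mean of 459 CPM in WT and 593 CPM in KO. *Tyrp1* (345 and 309 CPM) and *Pmel* (173 and 156 CPM) differed little. *Rpe65*, the retinoid isomerase, was at 280, 204 and 287 CPM in WT and at 1.13, 5.97 and 4.48 CPM in KO, whose mice carried RPE65-Cre, and the labels gave no Cre status for WT. The endothelial markers summed to 92.3 to 186 CPM in WT and 59.3 to 81.4 CPM in KO, and the fibroblast markers to 932 to 1930 and 821 to 1880 CPM. The part of these cell types in the level of *C4b* was not tested.

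The genes with the profile most like that of *C3* were taken as those at the smallest Euclidean distance between centred log2 CPM values over all libraries of a table. In the 9 mRPE libraries they were *Gm44417*, *Gm34648*, *Fas*, *Gm16267* and *Ltbp2* (distances 1.42 to 1.53), none of them a complement gene. In the 6 RPE/choroid libraries they were *Gm37964*, *Gm56918*, *Sros1*, *Col25a1* and *Sulf2* (0.59 to 0.64). The libraries of a table share their depth and batch differences, and these distances describe them only.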

How the data were processed

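RNA-seq was analysed in 9 mRPE and 6 RPE/choroid libraries, grouped by their sample labels. The authors trimmed reads with Trim Galore 0.6.7, aligned them to mm39 with STAR and deposited the raw count of each gene per library. Their normalized signal values are the deposited counts divided by size factors, named with DESeq2 1.42.0, and were not used. Genes that reached 5 counts in 3 or more libraries were tested in edgeR 4.0.16 (R 4.3.3) by quasi-likelihood after TMM normalization, and mRPE fits included the sequencing batch. P-values were adjusted by Benjamini-Hochberg over all tested genes. KO22 was compared with WT over 7 libraries, and KO26 with WT and KO22 with KO26 in 1 fit of 9. CPM values are on the TMM scale, SEs were derived from each log2 fold change and its F statistic, and intervals are 1.96 SEs. Counting intervals at 95% cover counting error only. Levels per kb used GENCODE vM39 gene lengths (joined exons of all transcripts), which 26262 of 26509 gene IDs had. Promoters and windows were read from GRCm39, the same assembly. The methods were tested on simulated data. Alternatives were DESeq2's size factors and test, no count filter, filterByExpr, no batch term, no fold limit, other sets of libraries and each library left out in turn.

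The members, the lists of other complement genes, cytokine genes and markers, and the rule for naming genes were chosen with earlier results of these data known. The rule named every member, at most the 3 largest called changes of a role and direction in each comparison, the 5 genes nearest to *C3* and the markers. *C1qb* and *C1qc* were named after their values were seen, and some genes of these lists are not reported here. The comparison of batches, the batch difference of KO22, fits of batch 9262 alone and RPE/choroid without mitochondrially encoded genes were added after the data were seen.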

Additional observations from a re-analysis of the deposited data

Results flagged for a closer look

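In 6 members the 2 *Prom1*-KO clones differed, by a test of KO22 against KO26 in the fit over 9 mRPE libraries, with the same WT libraries as control of both. On the log2 scale the difference was -2.85 for *C1ra*, -2.47 for *C1s1*, -1.21 for *C4b*, -3.77 for *Cd55*, -3.13 for *Cd59a* and 2.75 for *Serping1*. The values of *C4b* overlapped between the clones, and DESeq2's test did not call it. *C1ra* and *Cd59a* were called in every leave-one-out fit, and the others lost the call without 1 or more KO26 or KO22 libraries.

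In 4 members the difference between KO22 and WT was not the same in the libraries of the 2 batches, by a test of batch 9262 against batch 8995 that was added after the data were seen. The change was -2.81 for *C3*, -1.47 for *C1ra*, -2.11 for *C1s1* and -3.04 for *Serping1*. Batch 8995 held 1 library of each group, so that the batch and these single libraries cannot be told apart. Of the 14 tested cytokine genes, 11 changed in the same direction, among them *Il6*, *Cebpb* and *Cebpd*, and 3 in the other. Their part in these differences was not tested.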

How the results depend on the processing

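In KO22 against WT, *C1ra*, *C1s1*, *Cd55* and *Cd59a* kept their direction and their call in all 15 alternatives run, with log2 ranges of -3.57 to -2.93, -3.91 to -2.94, -7.54 to -6.06 and -2.93 to -2.08. *C3* passed the test in 4 of 15, without the batch term, in batch 9262 alone and without WT replicate 1 or KO22 replicate 1. The last 3 all rest on the batch 9262 libraries, so that they are not separate checks. All 5 alternatives of the batch difference of KO22 kept the calls of *C3*, *C1ra*, *C1s1* and *Serping1*. In RPE/choroid, DESeq2's test called 1 member higher, *C4b*, where edgeR called 0, and leaving out each library gave 0 to 1, the 1 without KO replicate 3.

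Counts of calls changed as follows. Without a limit on the fold change, 4 other complement genes were higher in KO22 against WT, 1 was lower in KO26 against WT and 8 were lower in KO22 against KO26. Over all genes these calls numbered 5506 of 20455, 235 of 20737 and 3744 of 20737. Without the batch term, 0 members were lower in KO26 against WT and 3 in KO22 against KO26, where 71 and 1864 genes in all were called lower. With WT and KO26 libraries alone, 2 members (*Cd55* and *Serping1*) and 1 other complement gene were lower in KO26, and with KO22 and KO26 libraries alone, 0 members were higher, 2 were lower and 1 other complement gene was higher. In all, 410 genes were called lower in the WT and KO26 fit. The fit of KO22 and KO26 called 988 higher and 1348 lower. In batch 9262 alone, 1 other complement gene was higher in KO22 against WT, where 2334 genes in all were called higher. Leaving out each library in turn gave 1 to 3 other complement genes higher in KO22 against WT. In the fits that gave 1, 1802 to 2654 genes in all were called higher. For KO26 against WT it gave 0 to 2 members and 0 to 1 other complement genes lower. For KO22 against KO26 it gave 0 to 1 members higher, 3 to 6 lower, 1 to 4 other complement genes higher and 3 to 6 lower, with the lowest counts of members without KO26 replicate 1 (higher) and KO26 replicate 2 (lower). For batch 9262 against 8995 it gave 1 to 6 members higher, with 195 to 219 genes in all called higher where it gave 1, and 1103 where it gave 6.

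Changes of sign were limited to differences that did not pass the test over all libraries. In batch 9262 alone, *Serping1* was at -0.03 in KO22 against WT and *C3* at 0.17 in KO26 against WT. Leaving out each library gave -0.03 to 1.28 for *Serping1* in KO22 against WT. In KO26 against WT it gave -0.68 to 0.03 for *C1ra*, -2.26 to 0.15 for *C1s1* and -2.51 to 0.43 for *C3*, and in KO22 against KO26 it gave -1.88 to 1.22 for *C3*. In RPE/choroid it gave -0.21 to 0.13 for *C1ra*, -0.17 to 0.40 for *Cfb*, -0.08 to 0.23 for *Serping1* and -0.59 to 0.18 for *Cd55*, and between batches -0.56 to 0.23 for *Cd59a*. The cause of these changes was not tested. A fit that left a group with 1 library in a batch assumed that it varied like the others. No paired analysis was possible because the labels give no replicate numbers. Counts of 0 to 10 per library limit *Cd55*, *Cd59a*, *Colec11* and *C4bp* in KO22, *Hc* in WT and KO26, and *Cfb*.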

Other observations

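Erythrocyte markers summed to 16.8 to 28.8 CPM in WT, 22 to 29 CPM in KO22 and 9.93 to 23.2 CPM in KO26 mRPE cells, and photoreceptor markers to 4.57 to 8.05, 3.34 to 8.82 and 3.48 to 6.59 CPM. Muscle markers summed to 590 to 1650, 148 to 240 and 867 to 1770 CPM, macrophage markers to 7.75 to 9.72, 10.9 to 13.8 and 10.7 to 11 CPM, and the single adipocyte marker, *Fabp4*, to 1.44 to 2.54, 5.5 to 35.5 and 0.557 to 2.54 CPM. In RPE/choroid, erythrocyte markers summed to 39.7 to 72.3 CPM in WT and 14.8 to 114 CPM in KO, photoreceptor markers to 39.1 to 1120 and 19.1 to 539 CPM, and muscle markers to 350 to 679 and 147 to 586 CPM.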
